A study of Mus musculus with 2 samples.

Results

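Krt8, Krt18, Krt19, Spp1, Clu, Muc1 and Anxa2, a group of 7 genes that mark pancreatic ducts or appear when acinar cells take on ductal features, were described across single cells sorted from mouse pancreas. The group was named gene by gene, and all 7 were among the 14789 gene symbols of the table. The cells came from adult mice of the genotype Tff2CreERT2; R26-tdTomato after tamoxifen, in which a Cre recombinase driven by Tff2 had switched on a red reporter, so the label follows cells that had used the Tff2 promoter and their descendants. Per the labels they were taken as CD45-, TER119-, EpCAM+ and RFP+, and the 2 samples named were replicates of 1 group, with no control group. No label ties a cell to a replicate, so all 728 cells were treated as 1 pooled sample. No difference below has a replicate check or a p-value, and intervals are exact 95% intervals that cover counting error only.

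Krt8, Krt18 and Krt19 encode keratins of simple epithelia, in which a type II keratin such as Krt8 pairs with a type I keratin such as Krt18 or Krt19 to build intermediate filaments. Acinar cells normally build theirs from Krt8 and Krt18, while Krt19 is the keratin by which ducts are recognised. Spp1 encodes the secreted glycoprotein osteopontin, Clu the secreted chaperone clusterin, and Muc1 a mucin that spans the apical membrane. Anxa2 encodes a calcium-dependent membrane-binding protein that works in a complex with S100a10 and is made by many cell types. In acinar-to-ductal metaplasia, a response to injury and an early step towards pancreatic cancer in mice, acinar cells lower their digestive enzymes and gain ductal genes.

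Cells were put into 3 classes without the use of these 7 genes. Ductal cells, 33 of the 728, had at least 2 UMIs (unique molecular identifiers, each a captured RNA molecule) of Epcam and Ambp together and were not acinar. Acinar cells, 275, drew at least 10% of their UMIs from 10 digestive enzyme genes, Ctrb1, Try4, Cela1, Prss2, Cela3b, Cpb1, Pnlip, Clps, Cela2a and Cpa1, called the rule genes here. The other 420 cells were divided by marker genes into 166 endothelial, 102 B or plasma, 77 T or NK, 23 macrophage or dendritic, 21 mesenchymal and 18 erythroid cells and 13 cells with no such identity. The stated sort was against blood cells (CD45 and TER119) and for EpCAM, and Epcam itself was at 925 CPM (UMIs per 1000000 UMIs of the class) in ductal, 14.4 CPM in acinar and 4.77 CPM in other cells. The median depth was 3101 UMIs per ductal cell, 2117 per acinar cell and 2020.0 per other cell, over a range of 1004 to 53222. Ductal markers outside both the group and the ductal rule, 10 genes, were all seen in ductal cells, at 4155 CPM together (3806 to 4528), against 119.5 CPM (101 to 141) in acinar cells, where 9 of the 10 were seen. Epcam and Ambp, which chose the ductal cells, are left out of that sum. Tff2 itself was at 87.7 CPM in ductal, 6599.8 CPM in acinar and 90.7 CPM in other cells. Barcodes ended in 1 (667 cells) or 2 (61 cells), and 7 barcode sequences stood under both endings, in 14 cells that were all acinar.

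The genes lay on 6 chromosomes of GRCm38, by the GENCODE M21 annotation. Krt8 (15, bases 101996698 to 102004482, minus strand) and Krt18 (15, 102028180 to 102032027, plus strand) were neighbours, with 23697 bases between them. Krt19 was at 11, 100140810 to 100148665 (minus strand), and the rest were on plus strands: Spp1 at 5, 104435118 to 104441050, Clu at 14, 65968483 to 65981547, Muc1 at 3, 89229057 to 89233381, and Anxa2 at 9, 69453620 to 69491795. Anxa2 shares 2570 bases with Gm16144 on the opposite strand, and Spp1 shares 1252 bases with Gm42793 on its own strand. Krt8 shares 271 bases with Gm36026 on the opposite strand. It was not stated in the labels how reads from overlapping genes were counted.

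The upstream sequences of Spp1, Muc1 and Anxa2 are shown because these 3 genes stood for the 3 ways in which the group was divided over the cells: ductal, ductal and acinar, and ductal and stromal. They are from RefSeq (GRCm38.p6), which held 5 of the 7 genes in the table used, without Krt19 and Clu. Each starts 250 bases before the RefSeq start and ends before the annotated gene (for Anxa2, 63 bases before that start). Capitals mark matches to any of 5 motifs searched on both strands.
Spp1, chr5:104434861-104435110, strand +: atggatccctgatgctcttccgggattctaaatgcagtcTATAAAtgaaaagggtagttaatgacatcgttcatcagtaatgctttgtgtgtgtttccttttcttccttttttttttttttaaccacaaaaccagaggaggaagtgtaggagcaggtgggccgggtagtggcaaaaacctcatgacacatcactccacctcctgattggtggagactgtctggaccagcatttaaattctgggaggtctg
Muc1, chr3:89228806-89229055, strand +: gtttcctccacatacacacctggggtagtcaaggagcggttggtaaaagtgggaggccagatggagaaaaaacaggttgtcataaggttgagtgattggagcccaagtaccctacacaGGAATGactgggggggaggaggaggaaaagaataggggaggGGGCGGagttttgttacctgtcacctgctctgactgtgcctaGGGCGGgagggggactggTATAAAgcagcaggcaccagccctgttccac
Anxa2, chr9:69453433-69453619, strand +: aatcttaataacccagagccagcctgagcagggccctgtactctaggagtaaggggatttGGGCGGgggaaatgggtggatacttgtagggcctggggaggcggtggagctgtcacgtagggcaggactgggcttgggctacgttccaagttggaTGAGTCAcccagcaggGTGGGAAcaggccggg
Of 32851 mouse promoter windows of 250 bases, 12.4% held the core promoter letters TATAAA and 32.7% the Sp1 letters GGGCGG. The AP-1 letters TGANTCA were in 6.75%, the TEAD letters CATTCC were in 12.6% and the RBPJ letters GTGGGAA were in 5.42%. Muc1 had the core promoter match from base -31 to -26, Sp1 matches from -91 to -86 and from -49 to -44 and a TEAD match on the minus strand from -132 to -127. Spp1 had only a match to the core promoter letters, from -211 to -206. A second RefSeq window of Spp1, at bases 104435942 to 104436191, lies within the annotated gene and is not shown. Anxa2 had an Sp1 match from -190 to -185, an AP-1 match from -95 to -89, which reads alike on both strands, and an RBPJ match from -79 to -73. Within the 63 bases of its window that are not printed, Anxa2 also had Sp1 matches from -48 to -43 and from -24 to -19 and a core promoter match from -17 to -12. A match describes letters and is not evidence of binding.

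Ductal cells were set against acinar cells first. Genes with at least 50 UMIs over both classes were compared, and a ratio of at least 2-fold either way was taken as a call. All 6 of the genes over that minimum were called higher in ductal cells, and 5 of them had reached it mostly through ductal UMIs, the exception being Muc1. So were 72.6% of the 1031 genes tested. The rule genes took 1.37% of the ductal and 53.3% of the acinar UMIs, which scales the acinar level of every other gene down. The median log2 ratio was 4.65 for the 6 genes and 2.10 for all genes tested. With the rule genes left out of the totals the 6 were still called, at a median of 3.57, beside 51.2% of genes and a median of 1.03.

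Of the keratins, Krt8 was at 1715 CPM in ductal cells (215 UMIs, interval 1493 to 1959.9), at 55.9 CPM in acinar cells (66 UMIs, 43.3 to 71.2) and at 21.0 CPM in other cells (22 UMIs). Krt18 was at 2472 CPM in ductal cells, 164 CPM in acinar cells and 22.9 CPM in other cells. Krt19 was at 423 CPM in ductal cells, 11.9 CPM in acinar cells and 6.68 CPM in other cells. The ductal and acinar intervals were far apart for each keratin: the log2 ratio of ductal over acinar was 4.93 (4.53 to 5.36) for Krt8, 3.92 (3.65 to 4.18) for Krt18 and 5.12 (4.28 to 6.12) for Krt19. The acinar Krt18 level was also clear of the level in B, plasma, T and NK cells, which are not epithelial and held 1 UMI of Krt18 in 179 cells (2.44 CPM, 0.0617 to 13.6). The acinar Krt19 level was not, at 6.49 to 19.9 CPM in acinar cells and 0 UMIs with an upper bound of 8.99 CPM in those lymphoid cells. Krt8, Spp1, Clu and Muc1 had acinar intervals above the lymphoid ones, whose upper bounds were 13.6, 17.6, 38.4 and 17.6 CPM in that order. For Spp1 this also held in barcode ending 1 alone, at 33.4 CPM (23.3 to 46.5) in acinar cells. B or plasma and T or NK cells of ending 1 had 0 UMIs, with upper bounds of 19.0 and 18.9 CPM. It did not hold in ending 2, which had all lymphoid Spp1 UMIs. There Spp1 was at 103 CPM (2.60 to 573) in 2 B or plasma cells and 84.8 CPM (2.15 to 472) in 5 T or NK cells. Acinar cells of ending 2 were at 83.2 CPM (41.5 to 149).

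Of the secreted and surface products, Spp1 was at 16229.9 CPM in ductal cells (2035 UMIs), 39.0 CPM in acinar cells (46 UMIs) and 136 CPM in other cells (142 UMIs), and was the gene of the group furthest apart between ductal and acinar cells, at 412-fold (311 to 570.4). Every ductal cell held Spp1, from 2623 to 43839 CPM per cell with a median of 16374. Clu was at 8398 CPM in ductal cells, 407 CPM in acinar cells and 105 CPM in other cells, or 20.6-fold between ductal and acinar cells (18.5 to 23.0), and every ductal cell held it too. Muc1 was at 215 CPM in ductal cells (27 UMIs), 49.2 CPM in acinar cells (58 UMIs) and 2.86 CPM in other cells (3 UMIs). Its log2 ratio of ductal over acinar, 2.15 (1.42 to 2.81), lay beside the median of all genes tested, and with the rule genes left out it was 1.07 (0.34 to 1.73), an interval that reaches below 2-fold. Muc1 was the gene of the group with more UMIs in acinar than in ductal cells.

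**Figure D1:**
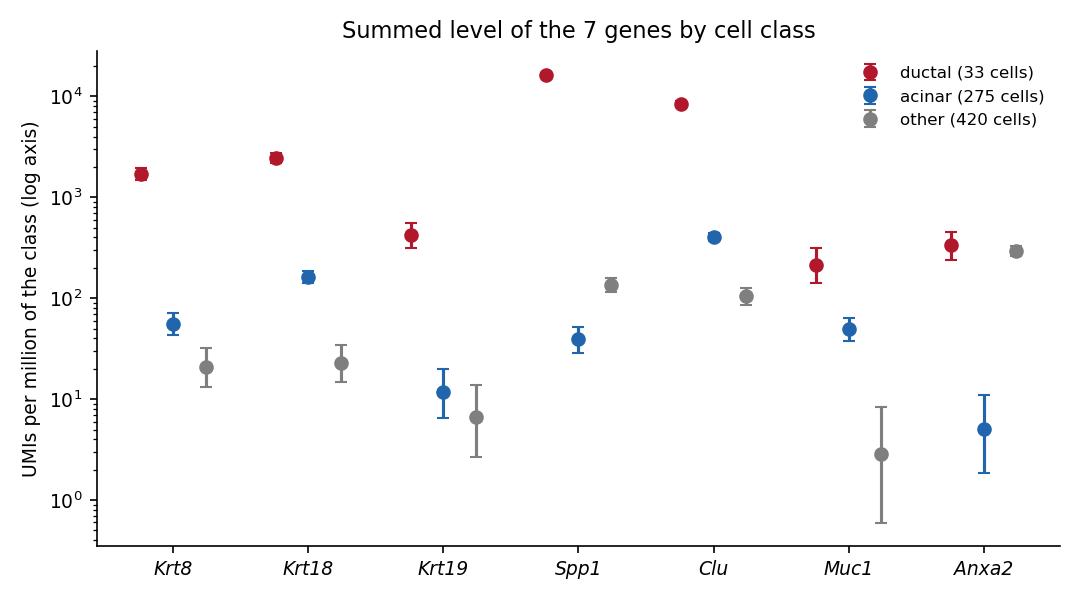
Level in UMIs per 1000000 UMIs of each class (vertical, log axis) for the 7 genes (horizontal) in ductal, acinar and other cells. Points are summed levels and bars are exact 95% Poisson intervals for counting error: Spp1 reaches 16229.9 in ductal cells, and Anxa2 is level between ductal (335) and other cells (295) with 5.09 in acinar cells.

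Anxa2 had another distribution. It was at 335 CPM in ductal cells (42 UMIs), 5.09 CPM in acinar cells (6 UMIs) and 295 CPM in other cells (309 UMIs), and the intervals of ductal and other cells overlapped (241 to 453 in ductal and 263 to 329.7 in other cells). Among the other cells it was at 748 CPM in mesenchymal, 598 CPM in endothelial, 210.0 CPM in macrophage or dendritic, 38.7 CPM in T or NK and 29.5 CPM in B or plasma cells, with 0 UMIs in erythroid cells. Over ductal and acinar cells together Anxa2 had 48 UMIs, under the minimum, and its log2 ratio there was 5.94 (4.80 to 7.57). S100a10, the light chain of the Anxa2 complex, was at 335 CPM in ductal cells, 1.70 CPM in acinar cells and 365 CPM in other cells, and by gate at 705 CPM in mesenchymal, 494 CPM in endothelial and 194 CPM in macrophage or dendritic cells. Unlike Anxa2 it was also at 396 CPM in T or NK and 226 CPM in B or plasma cells.

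Against all other cells, 5 of the 6 genes over the minimum were called higher in ductal cells, beside 16.0% of 2978 genes. These were Krt8, Krt18, Krt19, Spp1 and Clu, with log2 ratios from 5.90 to 6.90, while Anxa2 was at 0.20 (-0.32 to 0.65). The 5 genes called had reached the minimum mostly through ductal UMIs, so nothing is read from their count. Muc1, with 30 UMIs in both classes, was under the minimum. Of the other-class UMIs, 3 ungated cells held 16 of 22 for Krt8, 18 of 24 for Krt18, 134 of 142 for Spp1 and 66 of 110 for Clu. Each of these cells had 1 Epcam or Ambp UMI, just under the limit for ductal cells, held 5 genes of the group and had 10 to 17 UMIs of ductal markers outside it. The 5 remaining cells with 1 such UMI held no more than 1 gene of the group. In comparison, the 3 cells just inside the limit, with 2 such UMIs, held 4, 5 and 7 genes of the group and 30 to 40 Spp1 UMIs. Without the 3 ungated cells the other cells were at 5.78 CPM for Krt8 and for Krt18, 7.71 CPM for Spp1 and 42.4 CPM for Clu.

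Acinar cells were then set against all other cells. Krt8, Krt18, Clu and Muc1, 4 of the 6 genes over the minimum, were called higher in acinar cells, beside 4.63% of 3242 genes, with log2 ratios of 1.39 (0.70 to 2.18), 2.81 (2.22 to 3.51), 1.95 (1.65 to 2.27) and 3.89 (2.48 to 6.42). These 4 had reached the minimum mostly through acinar UMIs, so nothing is read from their count. Spp1, at -1.79 (-2.31 to -1.31), and Anxa2, at -5.74 (-7.31 to -4.72), were called lower, beside 83.4% of genes. Spp1 and Anxa2 had reached the minimum mostly through UMIs of other cells. The direction for Spp1 turned with the 3 ungated cells: counted as ductal, they left Spp1 at a log2 ratio of 2.27, higher in acinar cells. With the rule genes left out of the totals Spp1 was at -0.71 and no longer called, the same 4 genes were higher beside 8.11% of genes, and Anxa2 was lower beside 61.0%. Krt19, with 21 UMIs in both classes, was under the minimum.

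**Figure D2:**
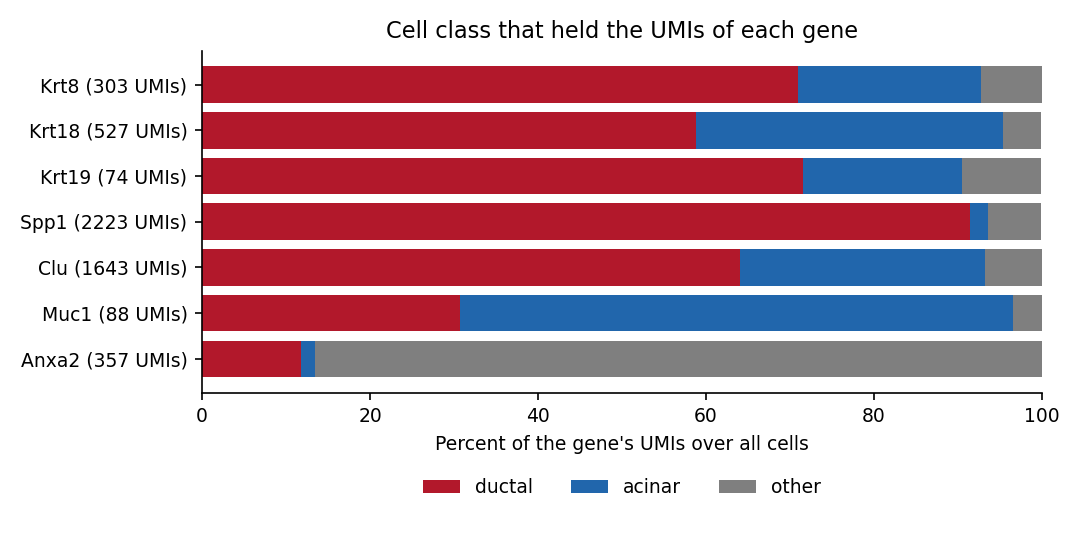
Share of each gene's UMIs over all 728 cells (horizontal, percent) held by ductal, acinar and other cells, with the UMI count of the gene in brackets. Ductal cells held 91.5% of Spp1, acinar cells 65.9% of Muc1 and other cells 86.6% of Anxa2.

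The proportions of the genes to each other also differed between the classes, which totals do not affect. For each UMI of Spp1, ductal cells held 0.152 UMIs of Krt18 and acinar cells 4.20, a ratio 27.5-fold higher in acinar cells (19.4 to 39.7). For Muc1 per Spp1 the acinar ratio was 94.0-fold higher (53.4 to 169.7) and for Clu per Spp1 20.2-fold higher (14.7 to 28.2). Among the keratins the difference was small: Krt18 per Krt8 was 1.44 in ductal cells and 2.92 in acinar cells, 2.03-fold higher in acinar cells (1.44 to 2.87). Krt19 per Krt18 was 0.171 in ductal cells and 0.0725 in acinar cells. Clu per Krt18 was close, at 3.4 in ductal cells and 2.49 in acinar cells, 1.37-fold higher in ductal cells (1.1 to 1.69). The wide gaps were thus those per Spp1, the gene furthest apart between the classes, while Muc1 per Krt18 was 3.44-fold higher in acinar cells (2.06 to 5.86).

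Detection per cell followed depth. A UMI of any of the 3 keratins was seen in 33 of 33 ductal cells, in 115 of 275 acinar cells (41.8%) and in 15 of 420 other cells (3.57%). After each cell was thinned to 1000 UMIs the shares were 93.9% (79.8 to 99.3) of ductal, 19.6% (15.1 to 24.8) of acinar and 2.14% (0.984 to 4.03) of other cells. In lymphoid cells the unthinned share was 2 of 179 (1.12%, 0.136 to 3.98) at a median of 1933 UMIs. Over quartiles of acinar depth, from shallow to deep, the share of cells with a keratin UMI was 20.6%, 29.0%, 42.0% and 75.4%, while the keratin level was 245, 219.5, 254 and 226 CPM with intervals that all overlapped. Acinar cells without a keratin UMI are thus not shown to lack keratin RNA at this depth.

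**Figure D3:**
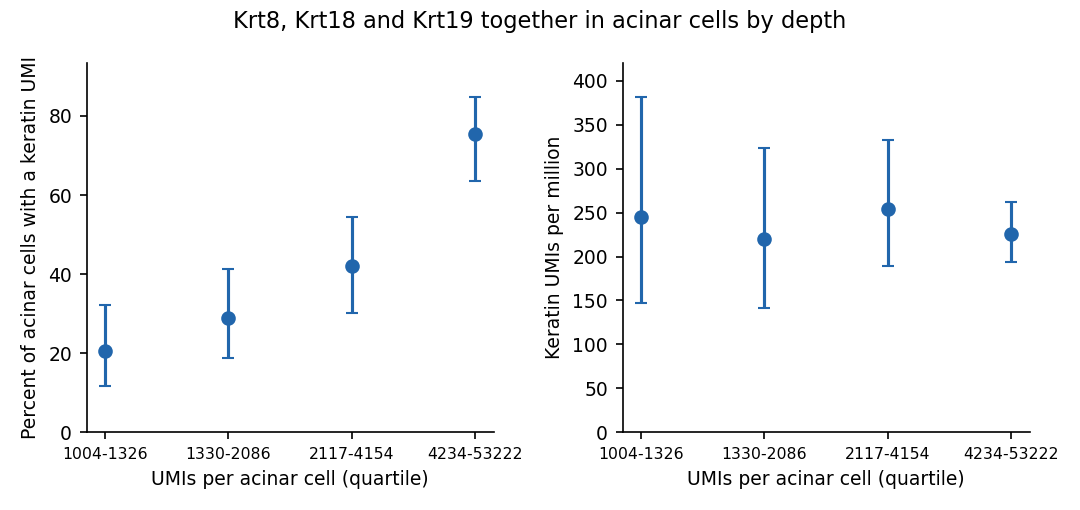
Left, percent of acinar cells with a UMI of Krt8, Krt18 or Krt19; right, summed level of these keratins in CPM, both by quartile of UMIs per cell (68 or 69 cells each) with exact 95% intervals. Detection goes from 20.6% to 75.4% over the quartiles, and the level stays between 219.5 and 254.

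Co-detection was common in ductal cells, which held a median of 6 of the 7 genes, and 32 of 33 held 4 or more. Acinar cells held a median of 1, and 23 of 275 (8.36%) held 4 or more. Other cells held a median of 0, and 3 of 420 held 4 or more, the ungated cells above. Thinned to 1000 UMIs, 27 of 33 ductal cells, 2 of 275 acinar cells and 3 of 420 other cells held 4 or more. The 23 acinar cells had a median of 10472 UMIs, against 1375 UMIs in the 66 acinar cells with none of the genes, and 21 of the 23 were at or above the acinar median depth.

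**Figure D4:**
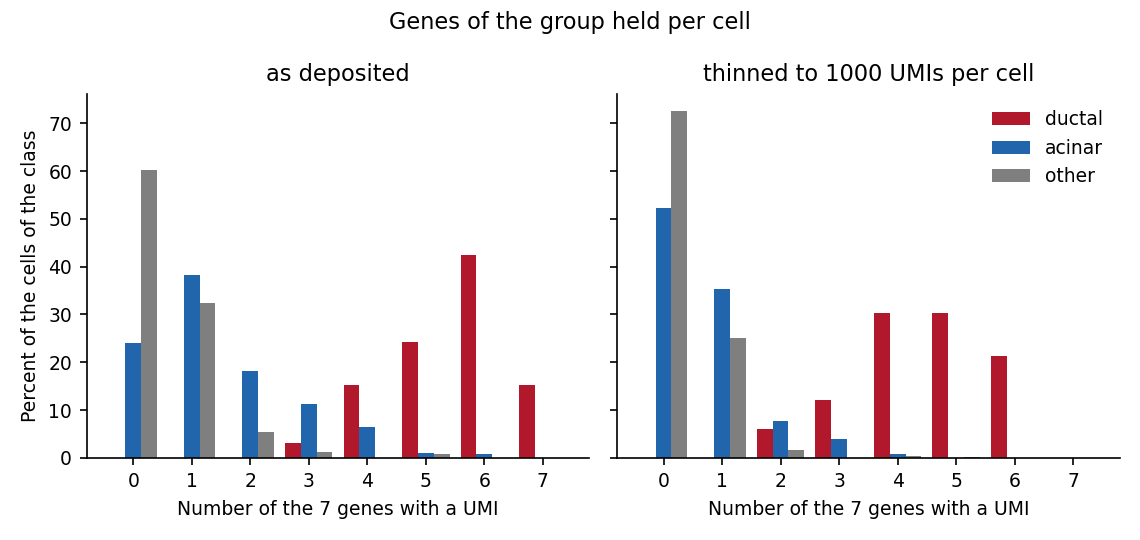
Percent of the cells of each class (vertical) by the number of the 7 genes with at least 1 UMI (horizontal), with counts as deposited (left) and thinned to 1000 UMIs per cell (right). Ductal cells centre on 6 genes and, thinned, on 5, while no acinar cell holds over 4 genes once thinned.

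Within acinar cells, Krt8 and Krt18 shared cells as deposited. Krt8 was seen in 30.5% (21.5 to 40.8) of the 95 acinar cells with Krt18 and in 9.44% (5.60 to 14.7) of the 180 without it. Thinned, these shares were 10.3% (2.87 to 24.2) and 5.08% (2.65 to 8.71), and their intervals overlapped. Among acinar cells at or above the median depth, as deposited, Krt8 was seen in 36.1% (25.1 to 48.3) of those with Krt18 and in 12.1% (5.38 to 22.5) of those without it, with intervals apart. These cells still ranged from 2117 to 53222 UMIs, so depth was not held equal among them. Below the median depth the shares were 13.0% (2.78 to 33.6) with Krt18 and 7.89% (3.67 to 14.5) without it, with intervals that overlapped. Spp1 was seen in 22 acinar cells, of which 21 also held Clu, beside Clu in 171 of all 275 acinar cells. At or above the median depth, Clu was in all 17 cells with Spp1 and in 110 of all 138. Thinned, Clu was in 5 of the 7 cells with Spp1 and in 95 of all 275. Across the 275 acinar cells no pair had a correlation of log-scaled levels above 0.27, in sparse counts from shared libraries. Across the 33 ductal cells the highest were 0.68 for Krt18 with Clu and 0.40 for Krt19 with Anxa2, and Krt8 with Krt18 was at 0.22, as descriptions of cells that share a library and differ in depth.

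Acinar cells were divided by measures other than the 7 genes to see which held them. Of the acinar UMIs of the group, 55.6% were of Clu and 22.4% of Krt18, so the summed level mostly follows these genes. The summed level of the group was lower where the rule genes took more of the cell: 578 CPM in the upper part and 945 CPM in the lower part of the cells, a log2 ratio of -0.71 (-0.91 to -0.51), and -0.91 (-1.27 to -0.55) for the keratins alone. A larger share of rule genes lowers the level of every other gene by construction, and with the rule genes left out of the totals these log2 ratios were -0.38 (-0.58 to -0.18) for the group and -0.58 (-0.94 to -0.22) for the keratins. Muc1 was then at 0.05 (-0.73 to 0.86). Spp1 was at 24.8 CPM in the upper and 58.7 CPM in the lower part, but was seen in 15 cells of the upper and 7 of the lower part. The summed level was higher with more mitochondrial UMIs, 1019.6 CPM in the upper and 614 CPM in the lower part (0.73, 0.53 to 0.93), lower with more Tff2, 637 CPM in the upper and 876 CPM in the lower part (-0.46, -0.66 to -0.26), and did not differ beyond its interval with total UMIs (-0.17, -0.42 to 0.10) or barcode ending (-0.30, -0.66 to 0.03). Under that last sum the genes went opposite ways: in ending 2 over ending 1 the keratins were lower, at 144 CPM in ending 2 and 242 CPM in ending 1 (log2 -0.72, -1.51 to -0.08), and Spp1 was higher, at 83.2 CPM in ending 2 and 33.4 CPM in ending 1 (1.36, 0.19 to 2.33). With the rule genes left out of the totals the keratin interval reached equal (-0.53, -1.32 to 0.11). The few lymphoid Spp1 UMIs were all in ending 2 as well. By Tff2, Muc1 went against the sum, at 0.51 (-0.31 to 1.42), while every other gene of the group had a lower level in the upper part. Cells with a UMI of the immediate early genes Fos, Jun, Junb, Egr1, Atf3 or Ier2, which respond to stress and growth signals, had 792 CPM, against 621 CPM in cells without one (0.35, 0.14 to 0.57). For the keratins alone that log2 ratio was 0.77 (0.37 to 1.20) and for Spp1 1.11 (0.09 to 2.41). Clu (0.11, -0.16 to 0.40) and Muc1 (-0.07, -0.86 to 0.79) were within their intervals of equal. With the rule genes left out of the totals the Spp1 interval by immediate early genes also reached equal (1.01, -0.01 to 2.31). Cells with a UMI of the 12 ductal markers outside the group had 799 CPM, against 659 CPM in cells without one (0.28, 0.08 to 0.47). Spp1 was 2.31-fold (1.21 to 4.89) and Krt18 1.63-fold (1.21 to 2.23) higher, with Clu and Muc1 within their intervals of equal. Spp1 was seen in only 10 cells with a ductal marker UMI and in 12 without one. Of its 33 UMIs in the former, 12, 6 and 5 were in 3 cells, an uneven spread that the interval does not cover. Cells with a UMI of the immediate early genes or of the ductal markers were also deeper. By immediate early genes the median was 3396 UMIs in cells with one and 1678 in cells without, and by ductal markers 3608 UMIs in cells with one and 1775 in cells without.

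Part of this lay in 21 acinar cells that drew under 40% of their UMIs from the rule genes, all of barcode ending 1. That limit was chosen after the values were seen. These 21 cells held the group at 2465 CPM (2067 to 2918), against 647 CPM (601 to 696) in the 254 acinar cells at or above 40%, a ratio of 3.81 (3.15 to 4.58), or 2.60 with the rule genes left out of the totals. The keratins were 3.42-fold (2.37 to 4.82) and Spp1 8.99-fold (4.43 to 17.3) higher in them. Some markers of other cells were also higher there. The 12 ductal markers outside the group, Epcam and Ambp included, were 4.94-fold higher. The endothelial markers were at 1607 CPM in the 21 cells and 35.6 CPM in the 254. Of the 6 acinar Anxa2 UMIs, 4 were in the 21 cells. Erythroid markers were not higher, at 183 CPM in the 21 cells and 331 CPM in the 254 (0.552-fold, 0.263 to 1.03). The ductal and the endothelial markers were each seen in 10 of the 21 cells, and 1 of the 21 held all of their 11 macrophage or dendritic marker UMIs. The part of these other cells in the result was not tested. With the 21 cells left out, the log2 ratio for the summed group was -0.32 by rule gene share, 0.24 by mitochondrial share, -0.11 by Tff2, 0.20 by immediate early genes and -0.03 by ductal markers, while for the keratins alone it was -0.75 by rule gene share, 0.42 by ductal markers and 0.72 by immediate early genes. The calls of the group between ductal, acinar and other cells were the same in number without them.

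**Figure D5:**
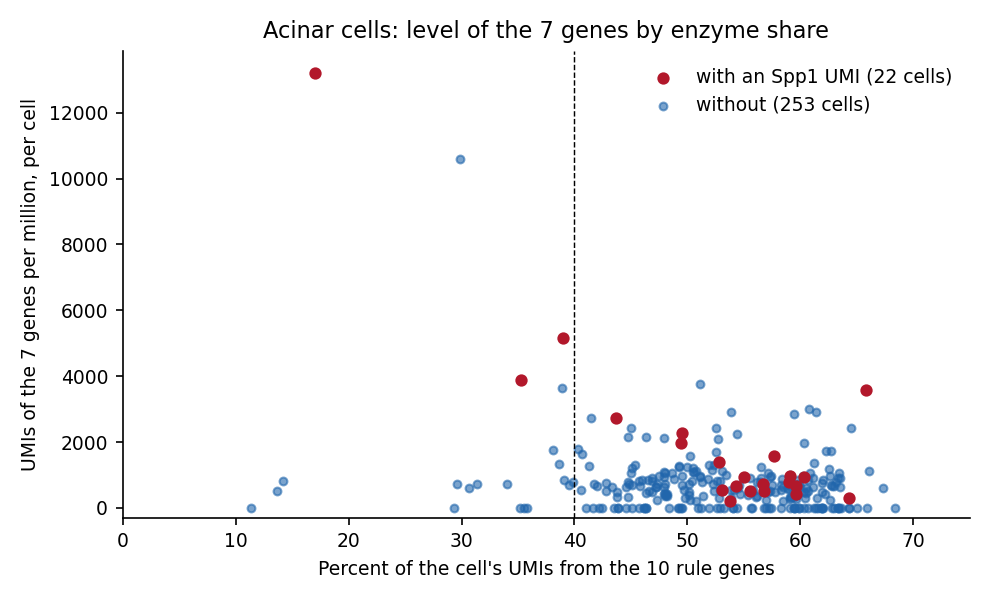
Summed level of the 7 genes in each acinar cell (vertical, UMIs per 1000000 UMIs of the cell) against the percent of its UMIs from the 10 rule genes (horizontal). Red points are the 22 cells with an Spp1 UMI, and the dashed line marks 40%, below which 21 cells lie, among them those at 13220.0 and 10584.

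Spp1 lay in few acinar cells. Of the 46 acinar Spp1 UMIs, 12, 6 and 5 were in 3 cells with 43.7%, 35.3% and 39.0% rule genes. The cell with 6 held 6 genes of the group and 8 of the 12 ductal markers outside it. A shallow cell of 1059 UMIs with 17.0% rule genes held 2 UMIs each of Krt8 and Krt18, 3 of Spp1, 7 of Clu and 5 of the ductal markers. Clu was highest in a cell of 4535 UMIs with 29.9% rule genes, with 38 Clu UMIs, 5 of Krt18, 2 of Muc1, 2 of Epcam and none of Spp1. Deep acinar cells with typical enzyme content also held keratins: the 3 deepest of the 23, with 53222, 43645 and 42616 UMIs and 52.6% to 55.5% rule genes, held 14, 7 and 16 UMIs of Krt18, 16, 7 and 13 of Clu and 1, 1 and 0 of Spp1.

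Genes that work with the group were taken from lists by role. Each count of ductal over acinar calls here stands beside the 72.6% of all genes tested that were called higher in ductal than acinar cells (51.2% with the rule genes left out of the totals), and all named genes but Cd24a had reached the minimum mostly through ductal UMIs, so nothing is read from the counts. Of 9 annexins and S100 partners, 3 were over the minimum in the ductal and acinar comparison and all 3 were called higher in ductal cells: Anxa5, a phospholipid-binding annexin, at 2049.7 CPM in ductal and 15.3 CPM in acinar cells, S100a11, a calcium-binding partner of annexins, at 2042 CPM in ductal and 8.48 CPM in acinar cells, and Anxa4 at 431 CPM in ductal and 7.63 CPM in acinar cells. Of 11 apical and mucin genes 2 were over it, and both were called higher in ductal cells. These were the tight junction claudins Cldn3, at 1093 CPM in ductal and 37.3 CPM in acinar cells, and Cldn7, at 582 CPM in ductal and 10.2 CPM in acinar cells. Of 18 genes linked to metaplasia 4 were over it and called higher in ductal cells: the surface protein Cd24a (853 CPM in ductal and 119 CPM in acinar cells), the ductal transcription factor Sox9 (742 CPM in ductal and 35.6 CPM in acinar cells), the Notch target Hes1 (654 CPM in ductal and 13.6 CPM in acinar cells) and the apical protein Prom1 (279 CPM in ductal and 22.9 CPM in acinar cells). Against other cells, 5 metaplasia genes were over the minimum in acinar cells. Of these, 1 was called higher, beside 4.63% of genes, and 3 lower, beside 83.4%. The higher one was Sox9 (log2 1.85, 0.88 to 3.06), with 42 acinar and 10 other UMIs, and Hes1 was among the lower (-3.26, -4.15 to -2.55). Sox9 had reached the minimum mostly through acinar UMIs and the lower genes mostly through UMIs of other cells. Nothing is read from these calls either. No filament partner, osteopontin receptor or clusterin receptor reached 50 UMIs in ductal and acinar cells together. Among the filament partners, Krt23 was at 231 CPM in ductal and 2.54 CPM in acinar cells, and the desmosomal genes Jup (152 CPM in ductal and 22.9 CPM in acinar cells) and Dsp (136 CPM in ductal and 19.5 CPM in acinar cells) were seen in both.

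The genes whose levels most followed the summed group over all 728 cells, by Pearson's correlation of log-scaled levels, were Dbi (0.53), Smim22 (0.52), Mgst1 (0.51), Snhg18 (0.48) and Fxyd3 (0.48). Over the 33 ductal cells, among 4497 genes compared, they included Apoe (0.71), Ambp (0.55), Tmem176a (0.55) and Ndufs4 (0.54). Over the 275 acinar cells they were 1110065P20Rik (0.25), the epithelial cadherin Cdh1 (0.23), Actb (0.22), Use1 (0.22) and Fam195a (0.21), all weak. These cells share libraries, and the group's level correlated with log depth at 0.19 over all cells, -0.09 over ductal and 0.14 over acinar cells. Ambp had also served to choose the ductal cells.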

How the data were processed

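The series holds droplet single-cell RNA-seq (10x Genomics) of sorted mouse pancreas cells. Per the labels and its whole numbers, the deposited table holds the authors' raw UMI counts per gene and cell, for 14793 gene rows and 728 cells; mm10 and Cell Ranger are named in the submitters' processing notes, and filters were not given in the sources used here. Counts of 4 symbols on 2 rows each were summed. Depth was 2353008 UMIs. The members and all lists and limits were chosen with earlier results of these data known. UMIs were summed per class and scaled to CPM. Log2 ratios used a prior of 0.5 counts, a minimum of 50 UMIs and a call at 2-fold, with exact Poisson, conditional binomial and Clopper-Pearson intervals (scipy 1.17.1, pandas 2.3.3, numpy 2.4.6, Python 3.11.15). Thinning drew 1000 UMIs per cell without replacement and left out no cell. Other cells were gated by the marker list with at least 2 UMIs and the most UMIs, erythroid cells by 10% of UMIs. Doublets were kept; Scrublet (scanpy 1.11.5) called 3 cells (0.412%). Named genes were the 7 members, up to 4 companions per role with the most ductal and acinar UMIs, and the 5 most correlated genes per class, among genes in at least 10% of cells, of which 1 is not reported here; S100a10 is also given by gate. Ratios and thinning were tested on simulated data. Of the symbols, 14333 (96.9%) matched GENCODE M21.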

Additional observations from a re-analysis of the deposited data

How the results depend on the processing

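With 1 pooled sample and no replicate check, the values rest on counting error alone, and 61 of the 728 cells came from barcode ending 2. No paired analysis was possible because cells are not tied to the 2 replicates of the 1 group. Scrublet called under 0.5% of cells and is no check of doublets. Counting ending 2 alone (3 ductal, 46 acinar and 12 other cells), the genes of the group called were 2 (main 6) for ductal over acinar higher, 2 (main 5) for ductal over other higher and 0 (main 2) for acinar over other lower, and 107 of 173 genes were called higher in ductal than acinar cells (main 749 of 1031). That last count was 485 without the deepest 5% of cells, 3822 with a minimum of 10 UMIs and 9766 with none. With ending 2 alone, Krt8, Krt18 and Krt19 were under the minimum in both ductal comparisons and could not be called. Krt18 there had 19 UMIs in ductal cells (1832 CPM) and 13 in acinar cells (98.3 CPM). Calls lower in acinar than other cells were 1 with an acinar minimum of 5%, with a ductal minimum of 1 UMI, with the rule genes left out of the totals, and with the 3 ungated cells as ductal, an alternative chosen after the data were seen. Among single genes, acinar over other turned for Spp1 with a ductal minimum of 1 UMI (2.25) and with the 3 cells as ductal (2.27), and for Krt8 (-2.53) and Krt18 (-1.49) with ending 2 alone, where both were under the minimum. In ending 2, 1 of the 3 ungated cells held 5 of the 6 Krt8 UMIs and all 9 Krt18 UMIs of the other cells. The ratios of ending 2 without that cell were not tested. The acinar share with a keratin UMI, 19.6% thinned to 1000 UMIs, was 10.9% at that depth with ending 2 alone, 9.09% thinned to 500 UMIs and 41.8% unthinned, where ending 2 alone had 26.1%.

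The log2 ratios of the summed group over the divisions of acinar cells moved beyond their counting intervals as follows, in the order rule gene share, mitochondrial share, Tff2, ductal markers and immediate early genes. With ending 2 alone they were -0.03, -0.24, -0.14, -0.08 and -0.16. By rule gene share the value was -0.96 with an acinar minimum of 5%, -0.38 without rule genes in the totals, -0.40 at the upper quartile and -0.32 without the 21 cells under 40%, also chosen after the data were seen. By mitochondrial share it was 1.01, 0.52, 1.07 and 0.24 under these same settings, and 0.52 without acinar cells with an Epcam or Ambp UMI. By Tff2 it was -0.76 with an acinar minimum of 5%, -0.11 at the upper quartile, -0.11 without the 21 cells and -0.21 without acinar cells with an Epcam or Ambp UMI. By ductal markers it was 0.53 with an acinar minimum of 5%, 0.62 with equal weight per cell, 0.74 without the deepest 5% and -0.03 without the 21 cells. By immediate early genes it was 0.61 with equal weight per cell and 0.82 without the deepest 5%. No other setting moved a count or share of the group past these limits.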
